A study of Mus musculus with 10 samples.

Results

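The genes described here are the glucocorticoid receptor, Nr3c1, and 9 genes of its response in lung: Zbtb16, Fkbp5, Pdk4, Tsc22d3, Sgk1, Klf9, Hsd11b1, Errfi1 and Cebpd. They were taken by name, as every probe set on the array whose platform annotation gives 1 gene symbol and that symbol is one of these, which found 30 probe sets for the 10 genes, among 18193 genes with such a probe set. Of the 30 probe sets, 27 passed a filter on dim signal and were tested, and each of the 10 genes had at least 1 of these.

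The smoke group held 6 C57BL/6J mice, which breathed cigarette smoke in a chamber beside their mother beginning when they were 1 day old. Exposure lasted 1 hour daily in the first 7 days and 2 hours daily in the next 7, and the smoke held 90 mg of particulates per cubic metre on average. The control group held 4 C57BL/6J mice of the same age, 2 weeks, housed apart and breathing filtered air. Total lung RNA of each mouse was hybridised to an Affymetrix mouse whole-genome array of its own. Sex is unknown per the labels, which name neither litter nor batch, so p-values measure only the spread between these arrays, whose number limits the precision.

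Glucocorticoids (corticosterone in the mouse) enter cells and bind the glucocorticoid receptor, a nuclear receptor held ready by the Hsp90 chaperones. The bound receptor moves to the nucleus and raises the transcription of target genes, among them several that then restrain the hormone's own action. The hormone is known for its part in the maturation of the lung around birth and for curbing inflammation there.

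Levels are given as log2 intensities after quantile normalization, and a change is the smoke mean minus the control mean on that scale. Alveolar type 2, alveolar type 1 and club cell markers were present on every array, with summed linear intensities of 30310 to 47723, 50737 to 68379 and 59977 to 74508 in smoke lungs and 35820 to 47543, 55692 to 63169 and 64345 to 71220 in control lungs. The actin 3' to 5' probe ratio, a measure of RNA quality, was highest in smoke arrays 1 and 2, at 31.6 and 29.4. It was 9.26 and 10.3 in smoke arrays 3 and 4 and 2.18 and 2.98 in smoke arrays 5 and 6, against 9.70, 10.4, 9.28 and 3.96 in control arrays 1 to 4. The Gapdh ratio gave another order, at 4.76, 9.16, 5.94, 3.68, 1.40 and 2.13 in smoke arrays 1 to 6, against 4.82 to 5.89 in control lungs, so by it smoke array 2 was high and smoke array 1 was not. Smoke arrays 5 and 6 were the smoke arrays high in Xist, an RNA of the inactive X chromosome of females, at 14.09 and 14.01, where smoke arrays 1 to 4 read 8.80 to 9.38. Control arrays 2 and 4 were also high, at 13.96 and 13.98, and control arrays 1 and 3 low, at 8.25 and 9.16. These Xist levels are read from the data and are no label of the study.

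In smoke-exposed lungs the level of Zbtb16 fell, by 13.4-fold on its brightest probe set, 1419874_x_at, and by 2.87-fold on 1427638_at (adjusted p = 0.0406 and 0.00814). Its remaining probe set, 1439163_at, was 6.53-fold lower and did not pass, and the brightest is of a kind that may match more than 1 transcript. No other of the 10 genes passed the test, although all 10 had a negative change on their brightest probe set. Their median log2 change was -0.70, against 0.06 over all 13382 genes tested, of which 43.1% were negative. Zbtb16 and Fkbp5 lay below every control in each of the 6 smoke arrays, 2 of 10 genes against a background of 2.11% of all genes. In total 1 of the 10 genes was called lower and 0 higher (limma, adjusted p under 0.05), where 0.702% of all genes were called lower and 0.0224% higher. At an unadjusted p under 0.05, 5 of the 10 genes were lower, against 4.47% of all genes. The 10 genes were listed with earlier results of these data known, so these shares describe the list and are no test of it. The call of Zbtb16 1419874_x_at was kept only without smoke array 5 or 6 and lost in the other 8 of 10 single omissions, with an adjusted p of 0.00310 to 0.188 over all of them. In whole lung RNA, fewer cells of a type and less RNA per cell cannot be told apart.

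**Figure D1:**
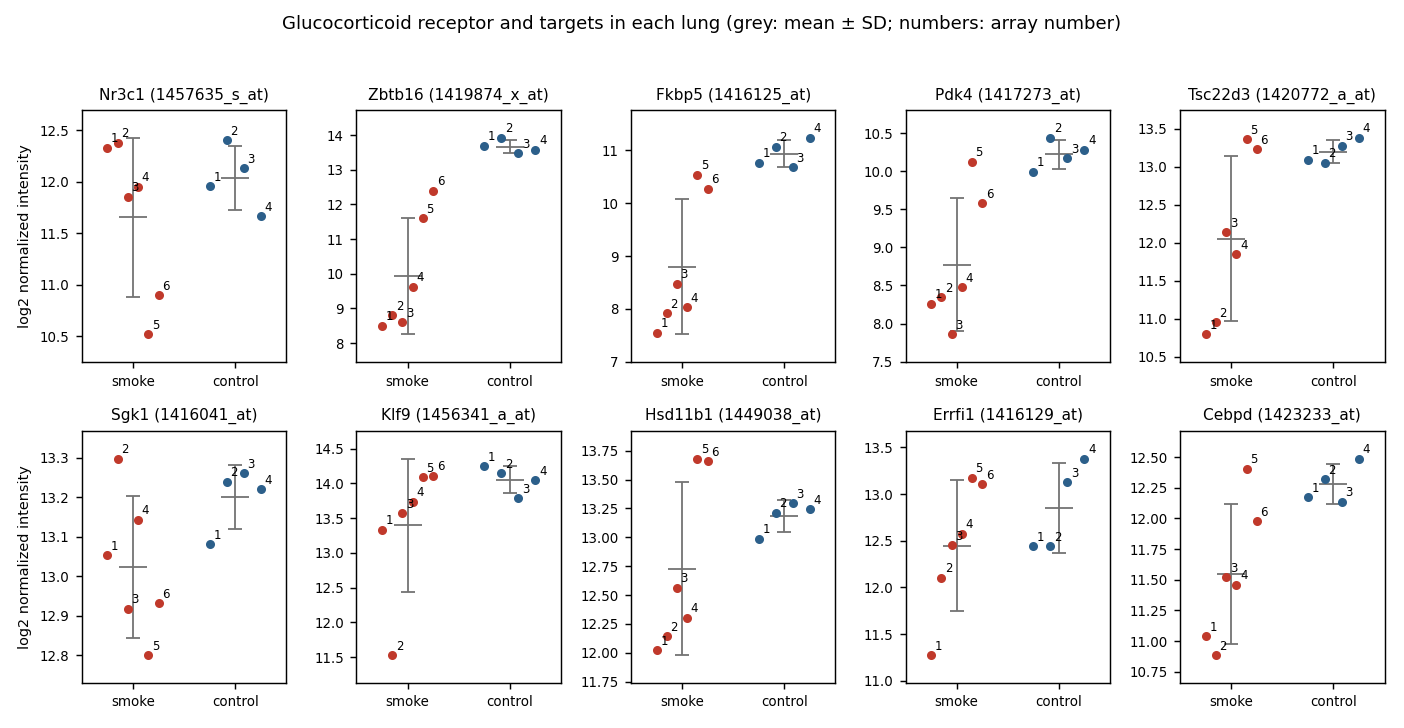
Log2 normalized intensity (y axis) of the brightest tested probe set of each of the 10 genes in every smoke (red, left) and control (blue, right) lung, numbered by array, with grey bars for the mean ± SD of 6 smoke and 4 control arrays. Zbtb16 and Fkbp5 are below all controls in 6 of 6 smoke arrays, and for Zbtb16, Fkbp5, Pdk4, Tsc22d3, Hsd11b1 and Cebpd smoke arrays 5 and 6 lie above smoke arrays 1 to 4.

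Nr3c1, the receptor itself, had no change past the test. Its brightest probe set, 1457635_s_at, read 12.33, 12.38, 11.86, 11.95, 10.52 and 10.89 in smoke arrays 1 to 6, against 11.96, 12.41, 12.13 and 11.67 in control arrays 1 to 4. Smoke arrays 5 and 6 were thus below all controls while the other 4 overlapped them, and the change was -0.39 ± 0.36 (log2 ± SE; limma, adjusted p = 0.738). The next brightest probe set, 1460303_at, was nearly level, at 11.61 ± 0.31 (SD, n = 6) in smoke lungs and 11.66 ± 0.13 (SD, n = 4) in control lungs (change -0.05 ± 0.18). The other tested sets had changes of -0.44 ± 0.28 for 1421867_at and 0.30 ± 0.27 for 1421866_at. Probe sets whose names end in _s_at or _x_at may match more than 1 transcript, and whether that bears on the low values of smoke arrays 5 and 6 was not tested. On 1421867_at smoke arrays 5 and 6, at 11.09 and 11.12, lay within the control range of 10.79 to 11.27. The lowest there were smoke arrays 1 and 2, at 9.92 and 9.84. Nr3c1 probe sets 1431378_at and 1453860_s_at lay under the filter and gave exact two-sided permutation p-values of 0.295 and 0.495, where 0.00476 is the smallest possible with 6 and 4 arrays.

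Hsd11b1 encodes the enzyme that regenerates active hormone from its inert keto form inside cells. It read 12.02, 12.14, 12.56, 12.31, 13.68 and 13.66 in smoke arrays 1 to 6, against 12.99, 13.21, 13.30 and 13.24 in control arrays 1 to 4. Smoke arrays 1 to 4 were below every control and smoke arrays 5 and 6 above every control, and the change over all arrays was -0.46 ± 0.33 (adjusted p = 0.661). Its range among smoke arrays was 1.66 log2 units, against 0.31 among controls.

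Fkbp5 and Tsc22d3 are targets whose products restrain the receptor or carry its anti-inflammatory action. Fkbp5, an Hsp90 co-chaperone that the receptor induces and that lowers the receptor's affinity for hormone, read 7.55, 7.91, 8.48, 8.04, 10.54 and 10.28 in smoke arrays 1 to 6, against 10.77, 11.07, 10.68 and 11.24 in control arrays 1 to 4. No smoke value reached the lowest control, and smoke arrays 5 and 6 were nearest to it. The change of Fkbp5 was -2.14 ± 0.56 and did not pass (adjusted p = 0.187), with a smoke SD of 1.28 against a control SD of 0.26. A dimmer probe set of Fkbp5, 1448231_at, showed no such difference, at 7.48 ± 0.43 (SD, n = 6) in smoke lungs and 7.50 ± 0.21 (SD, n = 4) in control lungs, and 1447736_at was at the floor of 3.98 on every array but smoke array 6.

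Tsc22d3, which encodes the anti-inflammatory leucine zipper protein GILZ, read 10.79, 10.96, 12.14, 11.85, 13.36 and 13.23 in smoke arrays 1 to 6, against 13.09, 13.05, 13.28 and 13.38 in control arrays 1 to 4. Smoke arrays 1 to 4 were below all controls and smoke arrays 5 and 6 lay within the control range. The change was -1.15 ± 0.47 (adjusted p = 0.449). Its other probe sets differed in sign and size, with changes of -0.95 ± 0.46 for 1425281_a_at, -0.02 ± 0.43 for 1425557_x_at and 0.49 ± 0.28 for 1444365_at, and none passed.

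Among the transcription factors Zbtb16, also called PLZF, is a zinc finger repressor on chromosome 9 (48651797 to 48836225, build GRCm38.p6). Its brightest probe set, 1419874_x_at, read 8.51, 8.80, 8.61, 9.62, 11.60 and 12.39 in smoke arrays 1 to 6, against 13.70, 13.93, 13.47 and 13.57 in control arrays 1 to 4. All 6 smoke values were below all controls, with a gap among the smoke arrays between array 4 and array 5. It fell, with a change of -3.74 ± 0.71 (limma, adjusted p = 0.0406), at 9.92 ± 1.67 (SD, n = 6) in smoke lungs and 13.67 ± 0.19 (SD, n = 4) in control lungs.

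The other 2 probe sets of Zbtb16 were also below all controls in 6 of 6 smoke arrays. The dimmest, 1427638_at, fell with the smallest spread, at 7.36 ± 0.36 (SD, n = 6) in smoke lungs and 8.88 ± 0.18 (SD, n = 4) in control lungs, a change of -1.52 ± 0.23 (adjusted p = 0.00814). It was called in 8 of 10 single omissions, with an adjusted p of up to 0.0547 without control array 1 or 2. The third, 1439163_at, had a change of -2.71 ± 0.60 and did not pass (adjusted p = 0.0934). Probe sets 1419874_x_at and 1427638_at were thus the only 2 of 27 tested for the 10 genes that passed, against 0.54% of all probe sets called lower.

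Klf9, a Krüppel-like factor that responds to glucocorticoid and thyroid hormone, was measured by 7 probe sets that differed in size and sign. The brightest, 1456341_a_at, ran from 11.53 through a median of 13.65 to 14.11 in smoke lungs, against 14.25, 14.15, 13.78 and 14.05 in control lungs, and the lowest smoke value was that of array 2. Its change was -0.66 ± 0.42 (adjusted p = 0.606), and it was -0.29 without smoke replicate 2. The other sets ranged from -1.92 ± 0.84 for 1436763_a_at, where smoke arrays 1 and 2 read 4.66 and 5.88, to 0.19 ± 0.26 for 1436952_at, and none passed. Between them lay 1428289_at at -1.57 ± 0.78, 1422264_s_at at -1.40 ± 0.72 and 1452723_at at -0.58 ± 0.29. The steadiest bright set, 1428288_at, had a change of -0.39 ± 0.17 and was at 13.12 ± 0.34 (SD, n = 6) in smoke lungs and 13.51 ± 0.08 (SD, n = 4) in control lungs.

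Cebpd, a basic leucine zipper factor induced by glucocorticoid and by inflammatory signals, read 11.04, 10.88, 11.52, 11.46, 12.41 and 11.98 in smoke arrays 1 to 6, against 12.17, 12.32, 12.13 and 12.49 in control arrays 1 to 4. All smoke arrays but array 5 were below the lowest control. The change was -0.73 ± 0.27 (adjusted p = 0.396), and a dimmer probe set, 1456605_at, was at -0.17 ± 0.34.

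Pdk4, a mitochondrial kinase that shuts down pyruvate dehydrogenase, read 8.26, 8.35, 7.86, 8.48, 10.12 and 9.58 in smoke arrays 1 to 6, against 9.99, 10.44, 10.17 and 10.28 in control arrays 1 to 4. Smoke array 5 lay within the control range and the other 5 below it, and the change was -1.45 ± 0.40 (adjusted p = 0.219). Errfi1, an inhibitor of the epidermal growth factor receptor, ran from 11.27 through a median of 12.51 to 13.18 in smoke lungs, against 12.44, 12.44, 13.13 and 13.38 in control lungs. The groups overlapped widely, with a change of -0.40 ± 0.35 (adjusted p = 0.720). A dimmer set of Errfi1, 1419816_s_at, read 5.43, 4.90, 7.91, 7.30, 10.06 and 9.52 in smoke arrays 1 to 6, against 8.12, 7.67, 9.29 and 9.10 in control arrays 1 to 4. Smoke arrays 5 and 6 were above every control there and smoke arrays 1, 2 and 4 below, with a change of -1.03 ± 0.93 (adjusted p = 0.733).

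Sgk1, a kinase that raises epithelial sodium transport, was the flattest of the 10. It ran from 12.80 through a median of 12.99 to 13.30 in smoke lungs, against 13.08, 13.24, 13.26 and 13.22 in control lungs. The change was -0.18 ± 0.12 (adjusted p = 0.631), and the smoke SD of 0.18 was the smallest among the 10 genes.

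**Figure D2:**
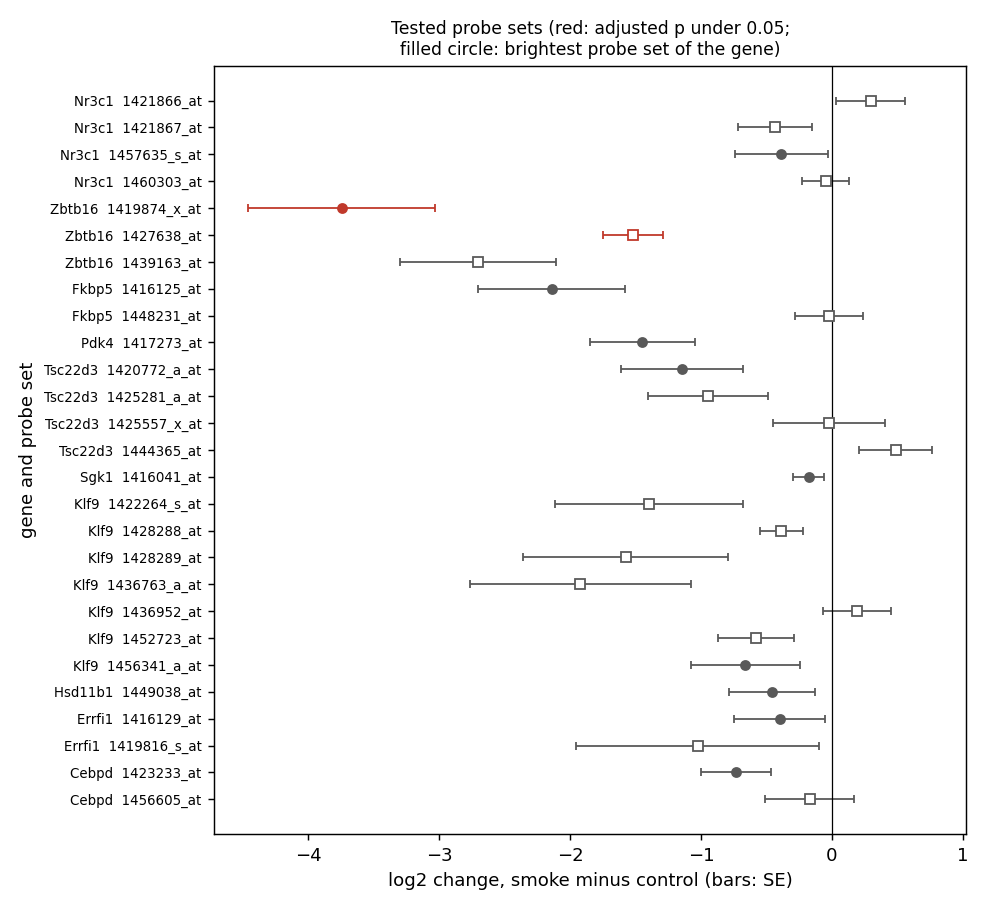
Log2 change, smoke minus control (x axis, bars are SE), of the 27 tested probe sets of the 10 genes (y axis), with filled circles for the brightest set of each gene and red for adjusted p under 0.05. Only Zbtb16 1419874_x_at and 1427638_at are red, and sets of Fkbp5, Tsc22d3 and Klf9 differ in size or sign from the brightest set of the same gene.

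The 6 smoke lungs differed among themselves more than the 4 controls did. The smoke SD exceeded the control SD for 10 of the 10 genes, against 81.4% of all genes, and the median smoke SD was 0.83 for the 10 genes and 0.45 for all genes, while the median control SD was 0.19 and 0.25. Of the 10 genes, 9, 8, 8, 7, 4 and 6 were below the lowest control in smoke arrays 1 to 6, where between 22.3% and 33.1% of all genes were. The median distance from the control mean was -1.41, -1.63, -0.69 and -0.85 in smoke arrays 1 to 4 and -0.03 and -0.29 in smoke arrays 5 and 6. For 8 of the 10 genes, all but Nr3c1 and Sgk1, both smoke arrays high in Xist were above each smoke array low in Xist, as was true of 22.9% of all genes.

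**Figure D3:**
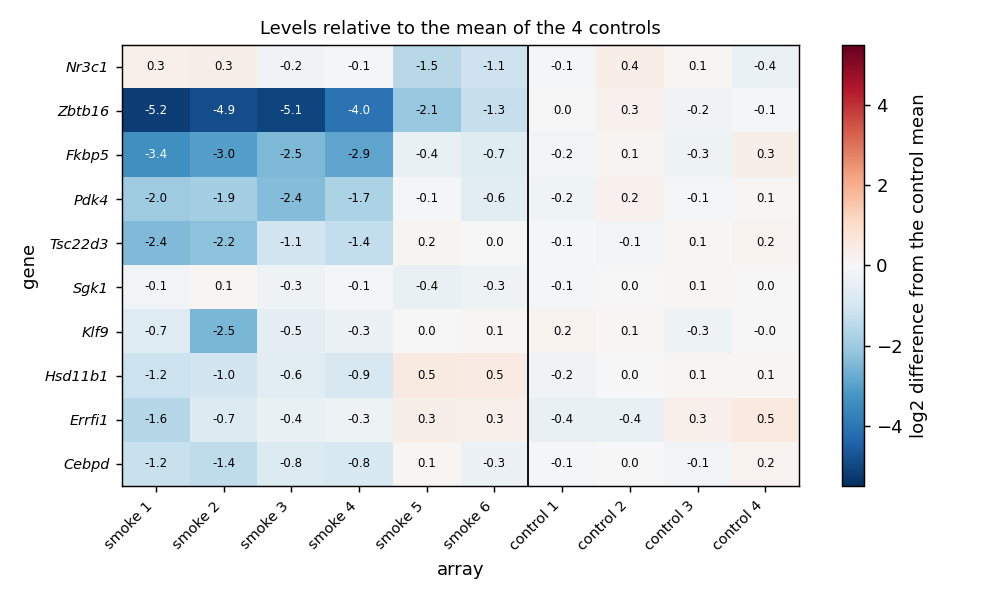
Log2 difference from the mean of the 4 controls (colour and printed value) for each of the 10 genes (rows) on each smoke and control array (columns). Smoke arrays 1 to 4 are blue for Zbtb16, Fkbp5, Pdk4, Tsc22d3, Hsd11b1 and Cebpd, and smoke arrays 5 and 6 are paler for all of these but Hsd11b1, which is red there, and blue for Nr3c1.

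The 3' to 5' ratios and the Xist level moved with this pattern, and their part in it was not tested. Smoke arrays 3 and 4 had actin ratios of 9.26 and 10.3, near the 9.28 to 10.4 of control arrays 1 to 3, and Gapdh ratios of 5.94 and 3.68, outside the 4.82 to 5.89 of all controls. They read 8.61 and 9.62 for Zbtb16, 8.48 and 8.04 for Fkbp5 and 7.86 and 8.48 for Pdk4, against at least 13.47, 10.68 and 9.99 in any control. In both of these arrays 7 of the 10 genes were below the lowest control, against 13.8% of all genes. Control arrays 2 and 4, high in Xist, had Zbtb16 at 13.93 and 13.57 and control arrays 1 and 3, low in Xist, had 13.70 and 13.47. The smoke arrays high in Xist were also those with the lowest actin and Gapdh ratios, so these measures cannot be told apart among smoke arrays.

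**Figure D4:**
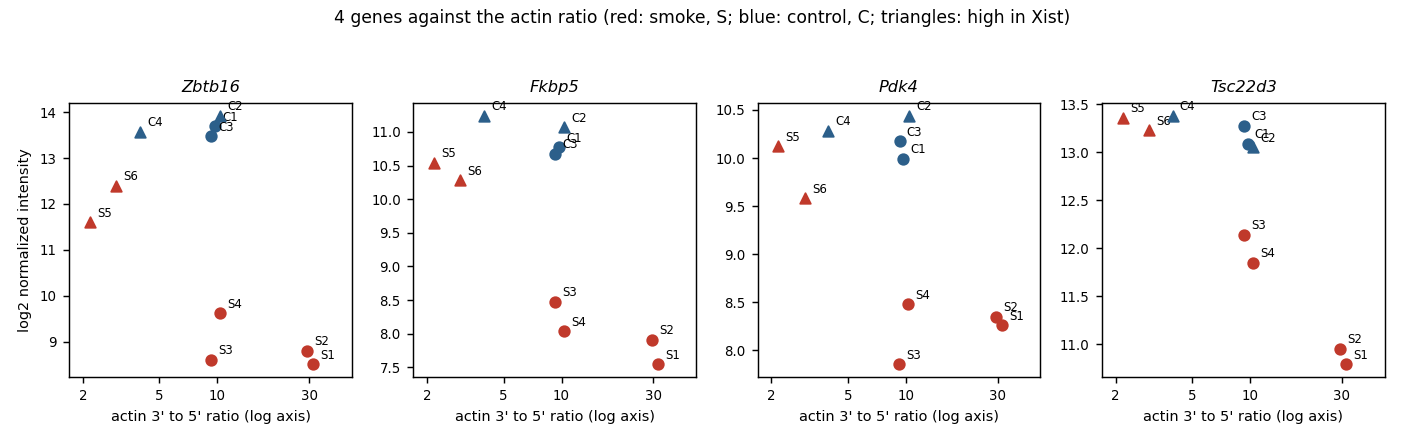
Log2 normalized intensity (y axis) of Zbtb16, Fkbp5, Pdk4 and Tsc22d3 against the actin 3' to 5' probe ratio of the array (x axis, log scale), for smoke (red, S) and control (blue, C) arrays, with triangles for arrays high in Xist. At ratios near 10, smoke arrays 3 and 4 are below control arrays 1 to 3 for each of the 4 genes, and smoke arrays 5 and 6, at the lowest ratios, lie nearer to the controls than the other smoke arrays.

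The counts of calls moved with the choice of arrays and with the terms of the fit. Leaving out any 1 control array also took the number of the 10 genes called to 0. Without smoke arrays 1 and 2, 0 of the 10 genes were called, against 0.88% of all genes lower, and the Zbtb16 change was -3.11 ± 0.67 (adjusted p = 0.0694), while its probe set 1427638_at stayed at -1.50 ± 0.22 (adjusted p = 0.00764). With arrays numbered 1 to 4 alone, which leaves out smoke arrays 5 and 6, 6 of the 10 were called lower, against 2.47% of all genes. These were Zbtb16 at -4.78, Fkbp5 at -2.95, Pdk4 at -1.99, Tsc22d3 at -1.77, Cebpd at -1.05 and Hsd11b1 at -0.93. When the fit held the log2 actin ratio as a term, 5 were called lower (Zbtb16, Fkbp5, Pdk4, Tsc22d3 and Cebpd), against 1.64% of all genes. When it held the Xist level, Zbtb16 and Fkbp5 were called, Fkbp5 at -1.97 ± 0.38 (adjusted p = 0.0458), against 0.71% of all genes.

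Within the 4 arrays high in Xist, smoke arrays 5 and 6 against control arrays 2 and 4, Zbtb16 was the only call among the 10 genes, at -1.75 ± 0.27 (limma, adjusted p = 0.0470), against 0.743% of all genes called lower. All 3 of its probe sets passed there, 1427638_at at -1.25 ± 0.20 and 1439163_at at -1.19 ± 0.15 (adjusted p = 0.0478 and 0.0333). Within the 6 arrays low in Xist, Zbtb16 and Fkbp5 were called, at -4.70 ± 0.34 and -2.73 ± 0.33 (adjusted p = 0.00356 and 0.0168), against 0.38% of all genes, while Zbtb16 1427638_at was at -1.64 ± 0.37 and did not pass there (adjusted p = 0.165). The test of the difference itself, an interaction of smoke with Xist level over all 10 arrays, called 0 of the 10 genes (adjusted p of 0.175 to 0.548) and 0.00747% of all genes, which is 1 gene, Fam107a, described with the wider targets. At an unadjusted p under 0.05 it held for 6 of the 10 genes, against 16.7% of all genes. Differences (high minus low in Xist) were 2.95 ± 0.50 for Zbtb16, 1.98 ± 0.41 for Fkbp5 and 1.33 ± 0.25 for Hsd11b1. They were 1.83 ± 0.52 for Tsc22d3 and 1.34 ± 0.39 for Pdk4. Nr3c1 went the other way, at -1.42 ± 0.37 on 1457635_s_at. Its other tested probe sets were at 0.98 ± 0.48 for 1421867_at, 0.29 ± 0.35 for 1460303_at and -0.44 ± 0.56 for 1421866_at. The interaction and the fits within Xist levels were chosen after seeing these data, so they describe the split among smoke arrays and are no separate support for it. Among smoke arrays the Xist level cannot be told apart from the actin and Gapdh ratios.

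**Figure D5:**
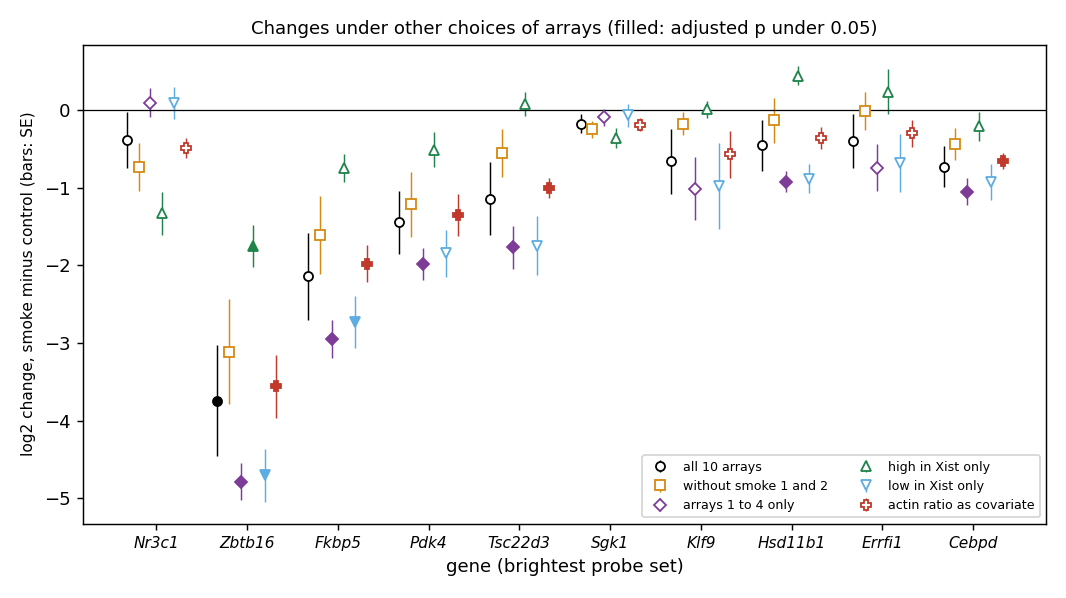
Log2 change, smoke minus control (y axis, bars are SE), of the probe set of each of the 10 genes that is brightest over all 10 arrays (x axis) with all 10 arrays, without smoke arrays 1 and 2, with arrays 1 to 4 only, within arrays high or low in Xist, and with the actin ratio as a covariate, where filled symbols mark an adjusted p under 0.05. Zbtb16 is below 0 in all 6 settings, Nr3c1 is just above 0 with arrays 1 to 4 only and within arrays low in Xist, and Tsc22d3, Klf9, Hsd11b1 and Errfi1 are above 0 within the arrays high in Xist.

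The promoter sequences of the genes were set beside these levels because several of the genes were low in the same arrays. RefSeq promoter windows of 300 bases, 250 before to 50 after a start site on build GRCm38.p6, were found for 7 of the 10 genes, 15 windows in all. They were searched on both strands for the receptor's binding hexamer AGAACA and for the full palindrome, which is AGAACA, any 3 bases and its reverse complement TGTTCT. The hexamer was in 4 of the 15 windows, 3 of Sgk1 and 1 of Tsc22d3, and in 19% of all 32851 windows of the table. The palindrome was in 1 window of Sgk1, with its first base 189 bases before the start site, and in 3 of all 32851 windows. A looser form, GNACA, any 3 bases and TGTNC, which also matches every full palindrome, was in the same Sgk1 window and in 0.475% of all. Shown are windows of Fkbp5, Pdk4 and Tsc22d3, the genes with the largest changes among those in the table, and of Sgk1, chosen after the search for its palindrome, as was the one of 3 Tsc22d3 windows that holds a hexamer. They read 5' to 3' on the gene's strand, with each hexamer in capitals. They lie at chr17:28486100-28486399 (minus strand), chr6:5496229-5496528 (minus), chrX:140600473-140600772 (minus) and chr10:21993640-21993939 (plus).
Fkbp5: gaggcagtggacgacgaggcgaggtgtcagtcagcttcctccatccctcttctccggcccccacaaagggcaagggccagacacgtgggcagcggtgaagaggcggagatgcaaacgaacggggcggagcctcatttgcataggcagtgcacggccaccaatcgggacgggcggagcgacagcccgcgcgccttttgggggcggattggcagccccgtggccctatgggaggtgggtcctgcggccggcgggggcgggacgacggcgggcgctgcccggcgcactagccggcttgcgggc
Pdk4: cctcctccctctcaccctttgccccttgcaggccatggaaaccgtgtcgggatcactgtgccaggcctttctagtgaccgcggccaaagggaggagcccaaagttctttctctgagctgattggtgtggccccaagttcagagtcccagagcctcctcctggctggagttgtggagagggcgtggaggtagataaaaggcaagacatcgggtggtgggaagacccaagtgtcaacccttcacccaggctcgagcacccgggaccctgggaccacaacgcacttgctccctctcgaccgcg
Tsc22d3: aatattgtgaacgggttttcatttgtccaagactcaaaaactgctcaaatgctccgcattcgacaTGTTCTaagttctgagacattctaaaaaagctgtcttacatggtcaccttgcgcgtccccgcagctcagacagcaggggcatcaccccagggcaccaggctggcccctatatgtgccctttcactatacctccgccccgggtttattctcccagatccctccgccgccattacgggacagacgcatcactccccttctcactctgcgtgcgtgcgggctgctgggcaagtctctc
Sgk1: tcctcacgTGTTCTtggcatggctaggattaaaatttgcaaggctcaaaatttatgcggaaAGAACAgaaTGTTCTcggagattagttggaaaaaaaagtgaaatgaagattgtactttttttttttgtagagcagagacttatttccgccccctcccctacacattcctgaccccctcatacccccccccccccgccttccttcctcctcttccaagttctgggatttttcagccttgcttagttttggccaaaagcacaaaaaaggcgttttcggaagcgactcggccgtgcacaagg
The Fkbp5 and Pdk4 windows hold no capitals, and these genes had changes of -2.14 and -1.45. Windows of Klf9, Hsd11b1 and Errfi1, not shown, also held no hexamer, and these genes had changes of -0.66, -0.46 and -0.40. The Tsc22d3 window shown holds 1 hexamer, and Tsc22d3 had a change of -1.15. Whether matches go with the size of a change was not tested. The Sgk1 window holds both strands of the hexamer around a spacer of 3 bases, and Sgk1 had a change of -0.18. A match describes the letters only, and sites outside these windows were not searched.

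Other genes of the pathway were counted from lists. Of all genes 0.702% were called lower and 0.0224% higher, so 0 calls in lists of this size are near that share. In the receptor's machinery of chaperones and coregulators, 0 of 17 tested genes were called, 15 were negative, against 43.1% of all genes, and the median change was -0.29, against 0.06 over all genes. Of the 17, 2 lay below all controls in every smoke array, against 2.11% of all genes. At an unadjusted p under 0.05 (limma) 4 were lower, against 4.47%. The summed linear intensity of the list was 55557 to 63083 in smoke lungs and 65361 to 72468 in control lungs. The smallest p-values were those of the chaperones Hsp90aa1, at -0.29 ± 0.10, and Hspa4, at -0.81 ± 0.30 (adjusted p = 0.383 and 0.397). In the list of ligand supply and related receptors 0 of 8 were called, with a median of 0.05. Hsd11b2, which inactivates the hormone, was at 0.69 ± 0.46, and Nr3c2, the mineralocorticoid receptor, at 0.42 ± 0.30 (adjusted p = 0.631 and 0.647).

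Among 31 tested genes of a wider list of glucocorticoid-induced targets 0 were called, 23 were negative and the median was -0.34. Of the 31, 6 lay below all controls in every smoke array, against 2.11% of all genes, and 11 were lower at an unadjusted p under 0.05, against 4.47% of all genes. The smallest p-values were those of Foxo3, a forkhead factor, at -0.63 ± 0.15, and Bcl6, a transcriptional repressor, at -0.88 ± 0.23 (adjusted p = 0.132 and 0.173). The summed linear intensity of the list was 103651, 108576, 112540 and 114744 in smoke arrays 1 to 4 and 151509 and 147437 in smoke arrays 5 and 6, against 140671 to 147584 in control lungs. With arrays 1 to 4 alone 10 of 30 tested genes were called lower, against 2.47% of all genes, and with the actin ratio as a covariate 4 of 31 (Fam107a, Foxo3, Glul and Map3k6), against 1.64%. Within arrays high in Xist 0 were called lower, against 0.743% of all genes, and 1 higher, Txnip, which was among the 10 called lower with arrays 1 to 4. The share of all genes called higher was not computed there. Within arrays low in Xist 4 of 30 were called lower (Anxa1, Cdkn1a, Fam107a and Sult1a1), against 0.38% of all genes, and 0 higher. These genes are named after their values were seen.

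Of 18 inflammatory genes on the array that glucocorticoid is known to repress, only 9 passed the filter on dim signal and were tested. Of these 9, 0 were called, against 0.702% of all genes called lower, and 7 were negative, against 43.1%. The median was -0.44, against 0.06 over all genes, with Ccl5 at -1.38 ± 0.58 and Mmp9 at -0.47 ± 0.23 (adjusted p = 0.459 and 0.512). Of 17 tested genes of lung maturation 0 were called, 7 were negative and the median was 0.03. Their smallest p-values were those of the elastic fibre protein Eln, at 0.55 ± 0.22, and the water channel Aqp5, at 0.42 ± 0.23 (adjusted p = 0.443 and 0.563). Eln was called higher with the actin ratio as a covariate, where the share of all genes called higher was not computed.

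The genes whose levels were most like those of Zbtb16 over the 10 arrays, by Pearson correlation, were Ampd3, Ccdc85a, Ccl6, Ifi213 and Fam107a, at r of 0.969 to 0.978. Fkbp5 was 9th and Pdk4 15th in that order of 13381 other genes, at r of 0.960 and 0.957, Cebpd 125th and Tsc22d3 153rd. Further down were Hsd11b1 at 469th, Klf9 at 1278th, Errfi1 at 1406th, Sgk1 at 4444th and Nr3c1 at 7041st. For Fkbp5 the closest were Xdh, B2m, Fam107a, Ccn2 and Ccdc85a, at 0.980 to 0.988, and Zbtb16, Cebpd, Pdk4 and Tsc22d3 ranked 20th, 23rd, 27th and 41st. Hsd11b1 ranked 188th there, Errfi1 1180th, Klf9 1621st, Sgk1 5763rd and Nr3c1 8189th. Fam107a, a stress-induced gene close to both and on the wider target list, read 8.05, 7.94, 8.10, 8.29, 11.50 and 11.53 in smoke arrays 1 to 6, against 11.84, 11.96, 11.71 and 12.28 in control arrays 1 to 4. All smoke values were below all controls, with smoke arrays 5 and 6 close to them, and the change was -2.71 ± 0.76 (adjusted p = 0.227). Its change was 3.07 ± 0.30 higher in arrays high than in arrays low in Xist (interaction, adjusted p = 0.0283). For Nr3c1, taken by its probe set 1457635_s_at, the closest were Ywhaz, Dhx15, Zbtb38, Grsf1 and Fubp3, at 0.979 to 0.991. The r of this probe set with Zbtb16 and Fkbp5 was -0.18 and -0.35. It was lowest in smoke arrays 5 and 6, whereas Nr3c1 1421867_at was lowest in smoke arrays 1 and 2. Correlations of the other Nr3c1 probe sets were not computed, so the sign of r holds for 1457635_s_at only. The 5 genes closest to Zbtb16 and to Fkbp5 had a lower smoke mean, as these 2 genes did, which choosing them by correlation over both groups favours. Of them only Ifi213 was called (limma, adjusted p = 0.0128), and the rest had adjusted p of 0.150 to 0.227. The 5 closest to Nr3c1 had small changes, -0.16 to -0.29, and none was called (limma, adjusted p of 0.670 to 0.898). All of these correlations take in the group difference and the split among smoke arrays, so they describe these 10 arrays and carry no test.

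Markers of other cell types differed between some arrays. Neutrophil markers fell for 3 of 6 tested genes (S100a9, S100a8 and Mmp8), against 0.702% of all genes called lower, with summed intensities of 7453 to 17215 over 7 of 8 markers in smoke lungs and 24663 to 36518 in control lungs. Cardiac muscle markers summed to 2259 to 3852 in smoke arrays 1 to 4 and 12122 and 6089 in smoke arrays 5 and 6, against 4273 to 8246 in control lungs, over 12 of 12 markers with 0 of 11 tested called. Skeletal muscle markers summed to 34308 in smoke array 5 and 232 to 740.4 in the other 5, against 13914 in control array 1 and 240.2 to 443 in the other 3, over 8 of 8 markers with 0 of 2 tested called. Fat markers summed to 1359 to 4828 in smoke lungs and 2113 to 12684 in control lungs, over 8 of 10 markers with 0 of 3 tested called. Smooth muscle markers summed to 9422 to 10843 in smoke lungs and 4589 to 8676 in control lungs, with 0 of 5 tested called. Of 4 tested B cell markers 0 were called. At an unadjusted p under 0.05 (limma) 3 of these 4 were higher, against 769 of all 13382 genes. B cell sums were 1550 to 2169 in smoke lungs and 1263 to 1840 in control lungs. In the other lists of cell type markers no gene was called. No marker of any list was at the floor on every array, and their part in the results was not tested.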

How the data were processed

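The authors deposited 1 linear intensity per probe set for each of 10 arrays; the program that summarised the probes is not given in the sources used here, and no detection calls were used. RNA was extracted with Trizol and amplified as labelled cRNA, per the labels' protocols. Array medians spanned 0.68 on the log2 scale, above a limit of 0.3, so the arrays were quantile normalized after log2. A floor was then set at the 10th percentile of all values, at intensity 15.8. Of 45101 probe sets, 64 controls were left out and the upper 60% by mean tested, 27022 in all. Symbols came from the platform annotation, where 34945 probe sets had 1 symbol, 932 several and 9160 none, and GRCm38.p6 gene IDs changed 0 of them. A gene was represented by its brightest tested probe set. Positions of probe sets within genes were not used.

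The smoke minus control contrast was fitted with limma 3.58.1 (R 4.3.3, eBayes with a variance trend), two-sided, with Benjamini-Hochberg adjustment over all tested probe sets and a threshold of 0.05. An exact permutation test over 210 splits was used for dimmer probe sets. The fit was tested on simulated data. The genes, the lists and the alternatives were chosen with earlier results of these data known, and the interaction with Xist and the fits within Xist levels were chosen after seeing the data here. Named genes were the 10 genes with every probe set, in each list the called genes (up to 4) or the 2 with the smallest p, and the 5 genes most correlated with Zbtb16, Fkbp5 and Nr3c1, without clone and predicted names. Marker lists of 15 cell types were examined. Correlations between arrays ran from 0.747 to 0.975, and 0 pairs were identical. Figures used matplotlib 3.10.9 (Python 3.11.15).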

Additional observations from a re-analysis of the deposited data

Results flagged for a closer look

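Among 59 sets of 6 smoke or 4 control values of the 30 probe sets, 7 held a value set apart from the rest by Dixon's ratio, where chance flags about 1 in 20. In smoke arrays these were Klf9 1456341_a_at, at 11.53 in smoke array 2 against 13.33 to 14.11 in the others, Klf9 1452723_at, at 5.67 in smoke array 1 against 6.39 to 6.73, Nr3c1 1460303_at, at 11.00 in smoke array 1 against 11.56 to 11.85, Nr3c1 1421866_at, at 6.28 in smoke array 3 against 6.89 to 7.18, Nr3c1 1453860_s_at, at 7.01 in smoke array 1 against 3.98 to 4.43, and Fkbp5 1447736_at, at 4.23 in smoke array 6 with the rest at the floor. In control arrays it was Klf9 1452723_at, at 6.60 in control array 1 against 7.14 to 7.21. Fam107a, of the wider target list, is given because its change differed by 3.07 ± 0.30 between arrays high and low in Xist (interaction, limma, adjusted p = 0.0283), a test chosen after seeing the data.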

How the results depend on the processing

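The number of the 10 genes called lower, 1 with all arrays, was 0 with median centring, without the filter, without a variance trend, without _x_at and _s_at probe sets and without smoke arrays 1 and 2, 2 with the Xist covariate and within arrays low in Xist, 5 with the actin covariate and by the fold and unadjusted p rule of the series' design text, and 6 with arrays 1 to 4 alone (7 with the replicate block there). Over single omissions it ran from 0 to 3. Of all genes, 0.88% were called lower without smoke arrays 1 and 2 and 0.71% with the Xist covariate. The share was 0.38% within arrays low in Xist, 1.64% with the actin covariate and 2.47% with arrays 1 to 4 alone. It was not computed for the design text rule, the replicate block or the other alternatives named here, so those counts have no background beside them. The number of probe sets called lower, 2 with all arrays, was 1 with median centring, without the filter, without a variance trend, without _x_at and _s_at probe sets and without smoke arrays 1 and 2, 4 with the Xist covariate, 8 with the actin covariate and by the design text rule, 10 with arrays 1 to 4 alone and 13 with the replicate block there. Over single omissions it ran from 0 to 5, with 0 without control replicate 1 or 2 and 5 without smoke replicate 5. The share over all probe sets was computed only with all arrays, at 0.54%. No gene or probe set of the 10 was called higher under any of these settings. In the wider lists, where 0 genes were called, 1 was lower without smoke arrays 1 and 2 and 13 with arrays 1 to 4 alone. Of all genes 0.88% and 2.47% were called lower in these settings.

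The median change of the 10 genes, -0.70, was -0.10 within arrays high in Xist and -0.35 without smoke arrays 1 and 2, and -0.56 to -0.85 over single omissions. Zbtb16 kept its sign under all 27 alternatives, as did Fkbp5, Pdk4, Sgk1 and Cebpd. Fkbp5 and Pdk4 were each called in 1 of 10 single omissions, without smoke replicate 5 (-2.49 and -1.72, adjusted p = 0.0410 and 0.0336). Signs turned within arrays high in Xist for Tsc22d3 (0.078), Klf9 (0.0053), Hsd11b1 (0.44), Errfi1 (0.23) and Nr3c1 (0.14), and for Nr3c1 also without smoke arrays 1 and 2 (0.12), with arrays 1 to 4 with or without the replicate block (0.089) and within arrays low in Xist (0.085). The 0.14 and 0.12 of Nr3c1 are those of 1460303_at, the brightest probe set there, while 1457635_s_at was at -1.33 ± 0.27 (adjusted p = 0.0746) and -0.74 ± 0.31 (adjusted p = 0.420) and did not turn. The cause of the other changes was not tested. Deviations of same-numbered smoke and control arrays correlated at -0.07 to 0.17. The labels give no link between such arrays beyond the number, and whether they share a litter or batch was not tested. No detection calls were used, so the signal over background of dim probe sets is not known.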
